A study of Rattus norvegicus with 36 samples.

Results

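Trim AGU is a shortened form (isomiR) of the microRNA miR-125b, and its effect on the RNA of hypoxic H9C2 cells was measured against that of a mimic control (MC). H9C2 is a line of rat cardiac myoblasts, which are muscle precursor cells. The comparison holds 6 of the 36 libraries of the series, 3 of Hypoxia Trim AGU and 3 of Hypoxia MC, chosen by their labels alone. Both groups were transfected with 25 nmol/L of their mimic, MC or Trim AGU, and were then kept in hypoxia, in a medium low in glucose and without serum. No group without a mimic and no second cell line was part of the comparison, so a difference is one between mimics within this line. Where the 3 libraries of a group came from is not stated, so p-values measure the spread between these libraries, which may be technical. The study asked whether isomiRs of miR-125b act on genes as miR-125b does.

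A microRNA guides an Argonaute protein to messenger RNAs. Bases 2 to 8 from its 5′ end, the seed, pair with sites that lie mostly in the 3′ untranslated region, and the paired RNA is translated less or decays. The 3′ end of a microRNA is held by another pocket of Argonaute and is where exonucleases and tailing enzymes act, so isomiRs that differ only at this end keep the seed. Myoblasts either divide or leave the cell cycle and turn on the genes of the contractile apparatus under factors such as MyoD and myogenin. miR-125b is known as a microRNA that restrains apoptosis and muscle differentiation.

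The mimics that the results turn on are shown from the 5′ end, with the seed in capitals. The miR-125b sequence is that of rno-miR-125b-5p in RefSeq (GRCr8, chr11:29732588-29732609, plus strand). The isomiR names list the bases taken off, read from the 3′ end.
miR-125b: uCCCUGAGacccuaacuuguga
Trim AG: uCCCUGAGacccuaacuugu
Trim AGU: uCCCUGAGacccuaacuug
Trim AGU is 19 bases long, against 22 for miR-125b and 20 for Trim AG. All of them carry the same seed.

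The labelled cells matched their markers in part. Of 12 myoblast markers, 10 passed the filter on low counts, and their summed level, in CPM (counts scaled to the same library size), was 5263 to 5413 in MC and 4372 to 6150 in Trim AGU. The sum does not show the single members. Of the 10, 7 were lower with Trim AGU and 0 higher by the test described below (median log2 fold change -1.61), against 12.4% and 11.4% of all genes. *Myf5* and *Cdh2* were below 0.5 CPM in all 6 libraries, and *Des*, the muscle intermediate filament gene, was at 1.57 to 1.89 CPM in MC. Of the cardiomyocyte markers, *Myh7*, *Nppa*, *Nppb* and *Ryr2* were below 0.5 CPM in all 6 libraries. Leukocyte markers summed to 23.1 to 25.2 CPM in MC and 15.2 to 25.6 CPM in Trim AGU, with *Ptprc*, *Lyz2* and *Aif1* below 0.5 CPM. Fibroblast markers summed to 30092 to 30919 CPM in MC and 17879 to 28858 CPM in Trim AGU, with *Pdgfra* below 0.5 CPM, and endothelial markers to at most 33.9 CPM in MC and 50.1 CPM in Trim AGU, with *Vwf*, *Tie1* and *Emcn* below 0.5 CPM. Epithelial markers summed to 182 to 192 CPM in MC and 148 to 205 CPM in Trim AGU, nearly all of it *Krt8*. The level of *Krt8* in Trim AGU was not told apart from that in MC (adjusted p = 0.4), and *Epcam* and *Cdh1* were below 0.5 CPM.

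Replicate 2 of Trim AGU stood apart from the other libraries. Totals were 29137206 to 30249626 counts in MC and 31870038 to 34048139 in Trim AGU, so depth was similar. Genes with at least 1 count numbered 18761 to 18934 in MC and 18663, 16981 and 18455 in Trim AGU replicates 1, 2 and 3. Counts from genes shorter than 1000 bases made up 10.3% to 10.9% of the MC libraries and 11.6%, 19.3% and 14.4% of the Trim AGU libraries. Ribosomal protein genes took 3.30% to 3.58% of counts in MC and 3.78%, 6.98% and 4.97% in Trim AGU, and genes of the mitochondrial genome 3.58% to 3.78% and then 3.29%, 5.70% and 4.45%. The genes were split by length into 4 equal parts. In the shortest part the median gene of replicate 2 lay 0.49 (log2) above MC, and in the longest part 0.51 below. Replicate 1 differed by 0.10 and -0.07 in the same parts, and replicate 3 by 0.25 and -0.20. The biological coefficient of variation was 0.323 in Trim AGU and 0.0862 in MC. Counts without replicate 2 are given for the main gene lists below.

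**Figure D1:**
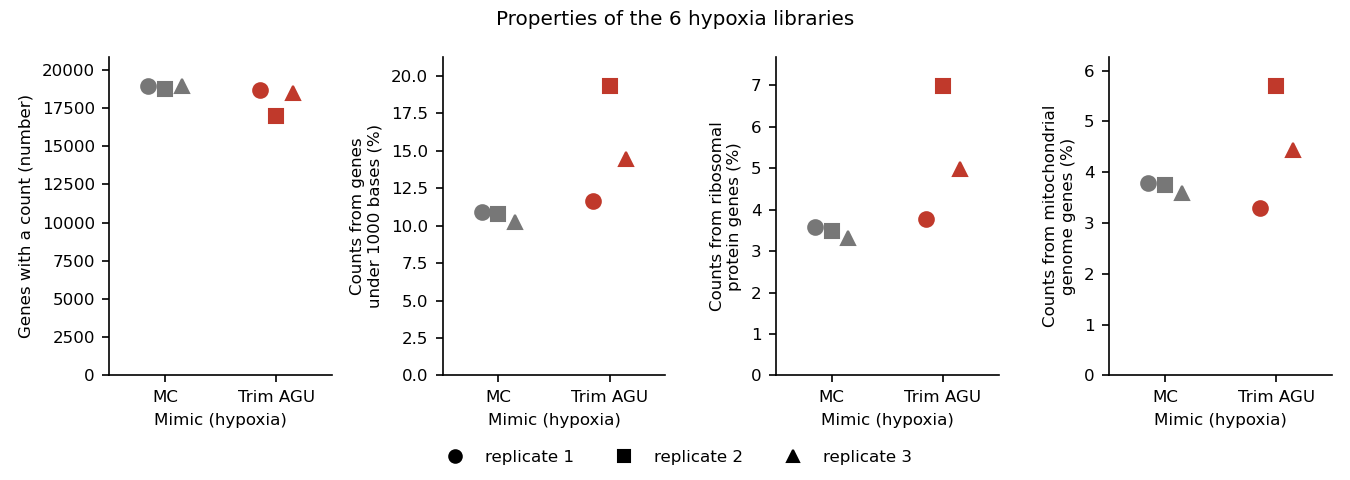
Each point is a library of MC (grey) or Trim AGU (red), with circles, squares and triangles for replicates 1, 2 and 3. From left to right the y axes give the number of genes with a count, the percentage of counts from genes under 1000 bases, from ribosomal protein genes and from genes of the mitochondrial genome. Replicate 2 of Trim AGU has the fewest genes (16981) and the highest of the 3 percentages.

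A gene was called when the Benjamini-Hochberg adjusted p-value of edgeR's quasi-likelihood test was below 0.05 and the fold change at least 1.5. Of 15026 genes tested, 1713 were higher with Trim AGU (11.4%) and 1857 were lower (12.4%). Without replicate 2, 10.6% of 15327 genes were higher and 15.2% were lower. For 8281 genes (55.1%) every Trim AGU library lay on one side of every MC library, and 99.9% of the called genes were among them. Of the genes called with all libraries, 1312 of the higher ones (76.6%) and 1721 of the lower ones (92.7%) were also called without replicate 2. With each of the 6 libraries left out in turn, 518 higher and 815 lower genes were called every time. Among the called genes, the median difference from the MC mean was 0.69, 1.19 and 0.84 (log2) in replicates 1, 2 and 3 for higher genes and -0.98, -1.25 and -1.11 for lower genes. That the called genes lay beyond MC in each Trim AGU library follows largely from the call itself. The difference was largest in replicate 2. The MC libraries mattered too, since 567 to 695 higher and 890 to 924 lower genes were called when any one of them was left out.

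Mitosis genes rose as a whole and contractile genes fell in greater part. In these bulk samples, fewer cells of a type and less RNA per cell cannot be told apart. All 33 mitosis genes tested were called higher (median log2 fold change 1.88, lowest 1.07, highest 2.84), against 11.4% of all genes and a median of -0.02. The median of the list was 1.85, 1.94 and 1.83 above the MC mean in Trim AGU replicates 1, 2 and 3, so the library that stood apart elsewhere gave nearly the same value here. Without replicate 2, 33 of 33 were higher, and 31 to 33 were higher with any one of the 6 libraries left out.

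*Ccnb1*, the cyclin that with CDK1 drives entry into mitosis, had 17.7, 17.3 and 14.6 CPM in MC and 70.6, 83.4 and 79.5 CPM in Trim AGU. All 3 Trim AGU libraries lay far above MC, a 4.60-fold rise (log2 fold change 2.20 ± 0.13 SE, adjusted p = 0.00039). *Cdk1*, the kinase itself, had 28.3 to 33.4 CPM in MC and 77, 142 and 95.7 CPM in Trim AGU, a 3.26-fold rise (1.71 ± 0.22, adjusted p = 0.003). *Mki67*, a marker of dividing cells, went from 36.5 to 39.7 CPM in MC to 135 to 149 CPM in Trim AGU (3.68-fold, 1.88 ± 0.10, adjusted p = 0.00038). *Plk1*, a kinase of spindle assembly, was at 13.3 to 17.3 CPM in MC and 52.8 to 73.3 CPM in Trim AGU (2.04 ± 0.17, adjusted p = 0.0008).

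Several mitosis genes were among the 12 higher genes named for the size of their change. *Birc5*, or survivin, is a subunit of the chromosomal passenger complex and an inhibitor of apoptosis (listed on chromosome 10, 106856097 to 106864413). It had 8.12, 7.08 and 7.64 CPM in MC and 46.6, 69.2 and 52.5 CPM in Trim AGU. The groups were far apart, at 7.17-fold (2.84 ± 0.17, adjusted p = 0.00042). *Prc1*, which bundles the microtubules of the central spindle, had 27.3 to 29.9 CPM in MC and 175, 222 and 177 CPM in Trim AGU, 6.55-fold higher (2.71 ± 0.12, adjusted p = 0.00027). *Nusap1*, a spindle protein, rose from 8 to 10 CPM to 43.3 to 56.9 CPM (2.42 ± 0.16), and *Cdc20*, an activator of the anaphase-promoting complex, from 8.49 to 10.3 CPM to 40.6 to 60.6 CPM (2.40 ± 0.18). *Pttg1*, or securin, had 2.57 to 4.88 CPM in MC and 16.5 to 33 CPM in Trim AGU (2.53 ± 0.34, adjusted p = 0.0036). *Cenpn*, a centromere protein gene, went from 10.3 to 11.7 CPM to 43.1 to 82.7 CPM (2.40 ± 0.24, adjusted p = 0.0013). *Anln*, which encodes the contractile ring protein anillin, was the member that depended most on one library. It had 105 and 91.8 CPM in replicates 1 and 3 of Trim AGU, 26 CPM in replicate 2 and 22.3 to 25.2 CPM in MC (adjusted p = 0.041, and up to 0.13 with 1 library left out).

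DNA replication genes rose less evenly. Of 38 tested, 20 were higher and 2 lower, against 11.4% and 12.4% of all genes, with a median log2 fold change of 0.71. The list medians by library were 0.71, 0.82 and 0.66 above MC. Without any one MC library 12 to 15 were higher, and without replicate 2 of Trim AGU 23 were higher and 3 lower (median 0.68). *Gins1*, a subunit of the replicative helicase, had 3.48 to 3.97 CPM in MC and 9.91, 21.3 and 14.7 CPM in Trim AGU (2.01 ± 0.28, adjusted p = 0.0038). *Cdt1*, which loads the helicase at origins, went from 7.59 to 7.66 CPM to 18.2 to 24.8 CPM (1.51 ± 0.16, adjusted p = 0.0015). *Dbf4*, the activator of the CDC7 kinase that fires origins, was not on the list and had 0.756 to 1.24 CPM in MC and 4.84 to 8.23 CPM in Trim AGU (2.72 ± 0.31, adjusted p = 0.0021). *Ube2t*, a ubiquitin-conjugating enzyme of the Fanconi anaemia pathway, rose from 2.8 to 3.49 CPM to 14 to 23.2 CPM (2.46 ± 0.24). The G1 cyclin *Ccne1* went the other way, from 27.7 to 32.9 CPM to 18.4 to 20.8 CPM (-0.64 ± 0.12, adjusted p = 0.012), as did *E2f2* (-0.72 ± 0.20, adjusted p = 0.033). Both lost the call when some single libraries were left out (adjusted p up to 0.073 and 0.12).

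The promoters of these genes are shown where the members moved together. Windows of 250 bases before to 50 bases after the first gene start that the RefSeq table lists (GRCr8) were found for 28 of the 33 mitosis genes. The letters TTTGAA of the cell cycle gene homology region (either strand) were in 19 of these 28 windows (67.9%) and in 4962 of all 27457 windows (18.1%). The letters CCAAT were in 20 of 28 (71.4%) and in 10363 of all windows (37.7%). A match is a description of the letters and shows no binding. Stretches of 30 bases with TTTGAA in capitals are given on the strand of the gene for the members named above, from chr10:103572126-103572155 (plus strand) for *Birc5*, chr1:143659451-143659480 (plus strand) for *Prc1*, chr5:137255833-137255862 (minus strand) for *Cdc20* and chr1:186147652-186147681 (plus strand) for *Plk1*.
Birc5: ccgcccgcgggtTTTGAAttagggattgtg
Prc1: cctccggctcggTTTGAAttccgcggggtc
Cdc20: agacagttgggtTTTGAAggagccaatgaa
Plk1: cccagcgctgcgTTTGAAttcggggaggag

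Contractile and sarcomere genes moved down. Of 39 tested, 28 were called lower and 2 higher (median log2 fold change -2.06), against 12.4% lower among all genes. Library medians were -1.89, -2.11 and -2.04, and without replicate 2 the list had 30 lower and 2 higher members. *Actc1*, the cardiac alpha-actin gene of the thin filament (listed on chromosome 3, 105507403 to 105512939), had 31.6, 30.1 and 33.2 CPM in MC and 0.852, 1.35 and 1.84 CPM in Trim AGU. It was 23.9-fold lower (-4.58 ± 0.28, adjusted p = 0.00042). *Tnni2*, the inhibitory troponin of fast muscle, had 16.9 to 18.6 CPM in MC and 0.916 to 1.58 CPM in Trim AGU (-3.95 ± 0.23, adjusted p = 0.00039). *Srl* and *Sln*, which encode sarcalumenin and the calcium pump inhibitor sarcolipin, were at 5.19 to 6.7 and 3.58 to 4.61 CPM in MC and at 0.113 to 0.422 and 0.0631 to 0.45 CPM in Trim AGU. *Unc45b*, a myosin chaperone, had 19.6 to 23 CPM in MC and 0.976 to 2.18 CPM in Trim AGU (-3.92 ± 0.34, adjusted p = 0.00087). *Igfn1*, a Z-disc protein gene that was not on the list, had 2.05 to 2.36 CPM in MC and 0.189, 0 and 0 CPM in Trim AGU. This was the largest fall among the named genes (-5.01 ± 0.86, adjusted p = 0.0077). *Myh15*, a myosin heavy chain gene, went from 4.82 to 5.42 CPM to 0.15 to 0.422 CPM (-4.27 ± 0.37, adjusted p = 0.00088).

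Not every contractile gene fell. *Acta2*, the smooth muscle alpha-actin, had 3860, 3940 and 3710 CPM in MC and 8780, 12500 and 8430 CPM in Trim AGU, 2.51-fold higher (1.33 ± 0.18, adjusted p = 0.0035). *Tpm2*, beta-tropomyosin, had 830 to 872 CPM in MC and 1490, 2780 and 1840 CPM in Trim AGU (1.23 ± 0.22, adjusted p = 0.0087). *Tpm1*, *Des*, *Atp2a2*, *Casq2*, *Mybpc3*, *Myh6*, *Tnni3*, *Tnnc1* and *Myl1* did not pass the test, and of these *Tnnc1* and *Myl1* were called lower without replicate 2. The smooth muscle marker list, which also holds *Acta2*, had 4 of 6 members higher and 0 lower by the edgeR test, with any one library left out and by DESeq2 as well. Its summed level was 5524 to 5857 CPM in MC and 12954 to 19152 CPM in Trim AGU. *Tagln*, the actin-binding protein transgelin, had 1470 to 1570 CPM in MC and 3580, 5970 and 4320 CPM in Trim AGU (1.56 ± 0.20, adjusted p = 0.0028). *Cnn1*, or calponin, went from 137 to 146 CPM to 290 to 419 CPM (1.22 ± 0.15, adjusted p = 0.0026), and *Lmod1* from 90.1 to 102 CPM to 171 to 187 CPM (0.85 ± 0.10). *Myh11*, the smooth muscle myosin, was at 8.15 to 9.59 CPM in MC and 8.07 to 10 CPM in Trim AGU and was not called (adjusted p = 0.88).

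**Figure D2:**
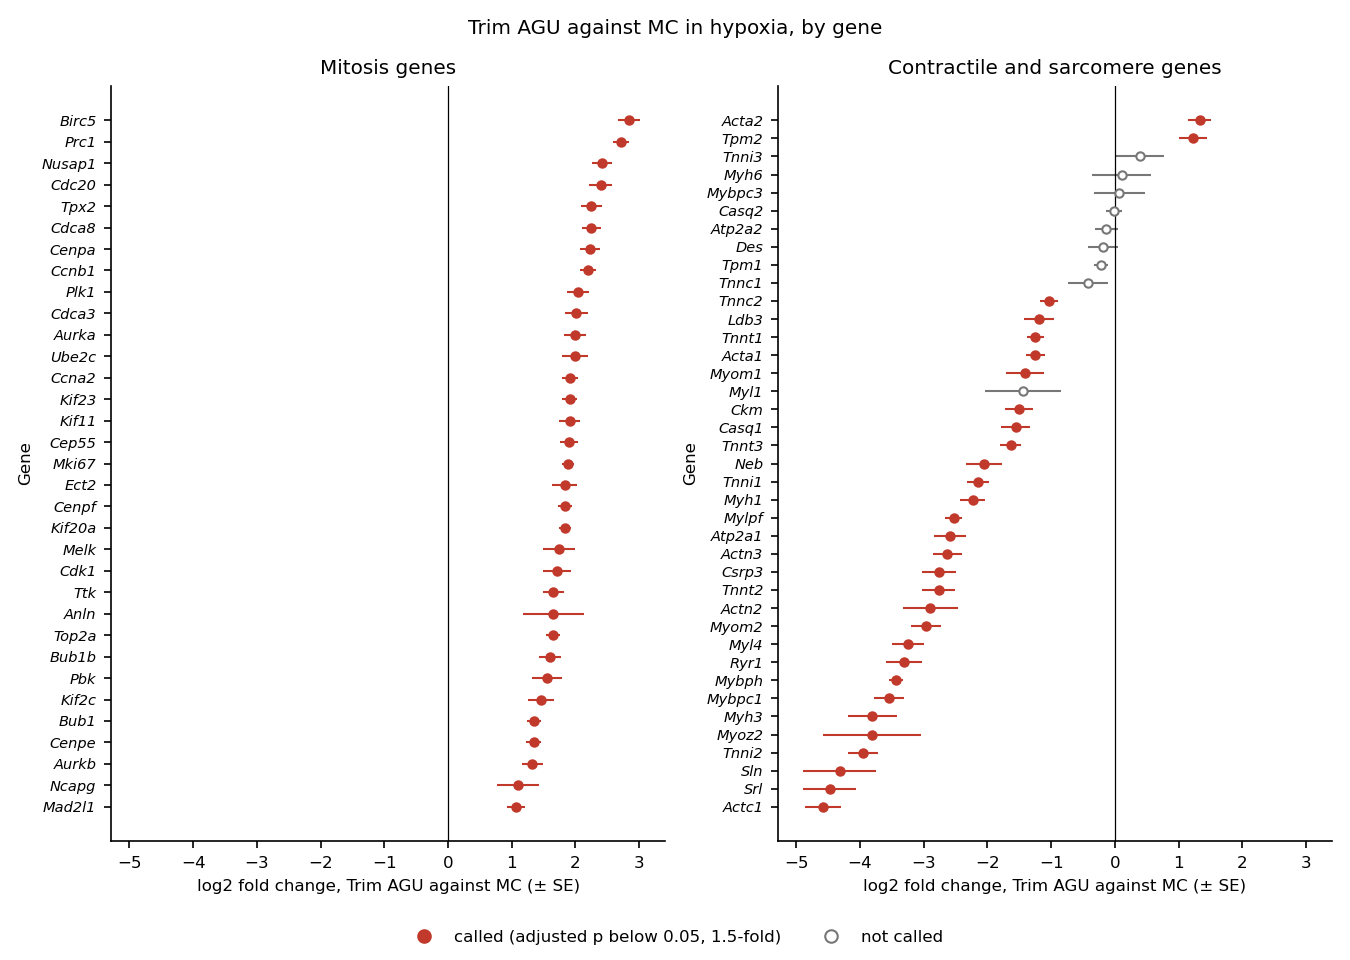
Each point is the log2 fold change of a gene, Trim AGU against MC, with its SE as a bar, for the 33 mitosis genes (left) and the 39 contractile and sarcomere genes (right). Filled red points passed the test. All mitosis genes lie between 1.07 and 2.84, while 28 contractile genes were called lower and only *Acta2* and *Tpm2* higher.

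The transcription factors and fusion genes of muscle differentiation fell with the contractile genes. Of 16 tested, 9 were lower, against 12.4% of all genes, and 1 was higher (median -0.90). Without replicate 2, 9 were lower and 2 higher (median -0.74), and 5 were lower without any one MC library. Of the 10 myoblast markers tested, some of them on this list, 7 were lower. *Myog*, the myogenin gene that starts terminal differentiation (listed on chromosome 13, 51126459 to 51129048), had 337, 342 and 324 CPM in MC and 42.4, 47.5 and 36.9 CPM in Trim AGU. It was 8.11-fold lower, with little spread in either group (-3.02 ± 0.12, adjusted p = 0.00023). *Myod1*, the determination factor upstream of it, had 58.2 to 63.3 CPM in MC and 17.5 to 23.7 CPM in Trim AGU (-1.53 ± 0.14, adjusted p = 0.00098). *Mef2c*, a partner of both, went from 45.1 to 48.6 CPM to 22.4 to 26.1 CPM (-0.93 ± 0.12, adjusted p = 0.0029). *Tmem8c* and *Gm7325*, the older symbols of the fusion genes myomaker and myomixer, had 25.9 to 27.4 and 49.5 to 54.7 CPM in MC and 6.3 to 15.2 and 7.48 to 15.1 CPM in Trim AGU. *Mef2b* was the member called higher, at 0.26 to 0.693 CPM in MC and 1.81 to 2.29 CPM in Trim AGU (1.99 ± 0.38, adjusted p = 0.011). *Chrna1*, the acetylcholine receptor subunit that marks myotubes, went from 26.7 to 30.6 CPM to 4.65 to 5.46 CPM (-2.53 ± 0.15, adjusted p = 0.00039).

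Of the contractile genes, 32 had a promoter window, and the E-box CAGCTG, which myogenic factors can bind, was in 13 of them (40.6%) and in 4134 of all 27457 windows (15.1%). The letters are the same on both strands. The 13 include *Acta2*, which was called higher, and *Des*, *Mybpc3* and *Myh6*, which did not pass the test. *Myl4*, an embryonic myosin light chain (36.6 to 40.8 CPM in MC, 2.87 to 5.52 CPM in Trim AGU), and *Mylpf*, the fast regulatory light chain (195 to 207 and 30.5 to 43.2 CPM), are shown as members that fell, beside *Tnnt2*. The stretches lie at chr10:89976019-89976048, chr1:191260122-191260151 and chr13:49818900-49818929 of GRCr8, all on the plus strand.
Myl4: ataatgagatgtCAGCTGcaccctgctggt
Mylpf: cttcctggactcCAGCTGctgcaggcctcc
Tnnt2: gctttatctgagCAGCTGgaggaccacatg

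**Figure D3:**
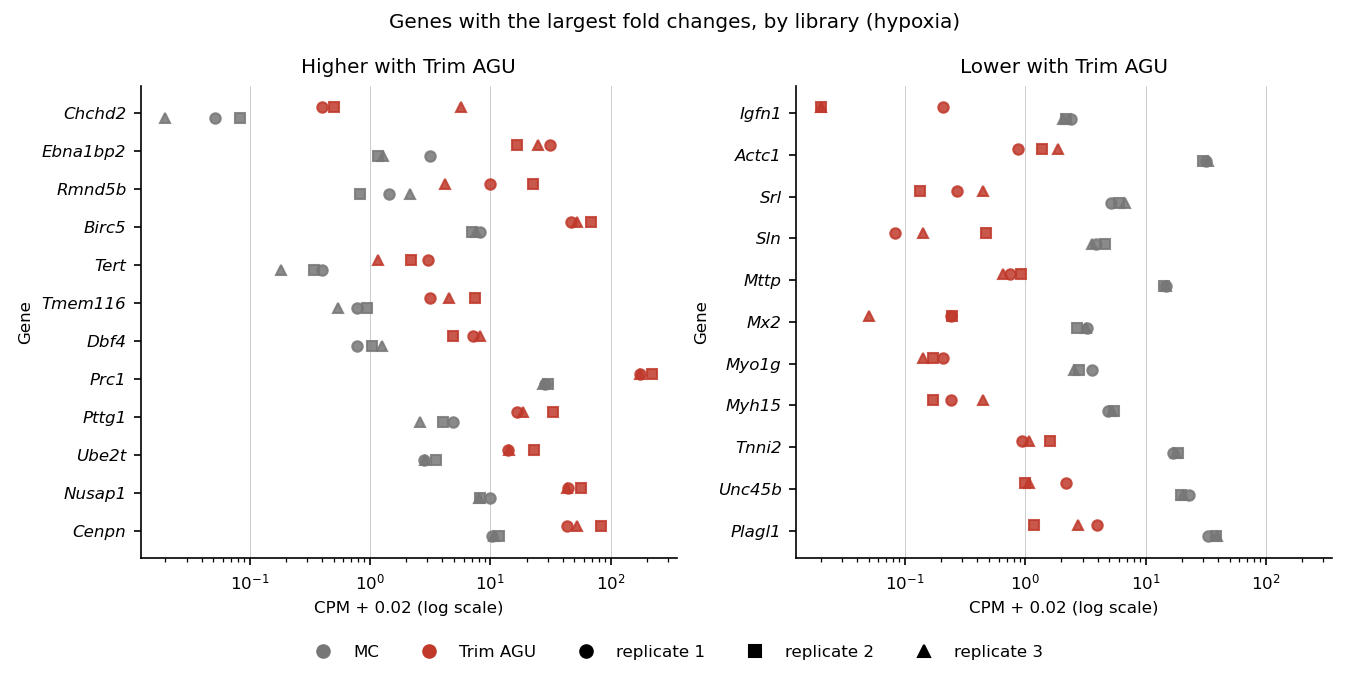
Levels in CPM plus 0.02 on a log axis, by library, for genes with the largest fold change in each direction under the naming rule. MC is grey, Trim AGU red, with circles, squares and triangles for replicates 1, 2 and 3. The rule takes only genes whose groups do not overlap, so every Trim AGU point lies beyond the MC points of its gene.

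The other genes with the largest changes belong to no single group. *Ebna1bp2*, a ribosome assembly factor, had 3.12, 1.15 and 1.27 CPM in MC and 31.2, 16.5 and 25.1 CPM in Trim AGU (3.68 ± 0.46, adjusted p = 0.0029). *Tert*, the catalytic subunit of telomerase, had 0.163 to 0.378 CPM in MC and 3.03, 2.18 and 1.15 CPM in Trim AGU, low levels that did not overlap (2.83 ± 0.50, adjusted p = 0.0083). *Tmem116* went from 0.52 to 0.929 CPM to 3.16 to 7.39 CPM (2.72 ± 0.39, adjusted p = 0.0042). *Rmnd5b*, a ubiquitin ligase subunit, had 9.94, 22.5 and 4.22 CPM in Trim AGU and 0.801 to 2.15 CPM in MC, and *Chchd2* had 0.379, 0.488 and 5.67 CPM against 0 to 0.0641 CPM. Both lost their call without some MC libraries (adjusted p up to 0.069 and 0.11), and *Chchd2* rested mostly on replicate 3. Near-identical copies of *Chchd2* can share reads, so its level is uncertain.

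On the lower side, *Mttp*, the transfer protein that loads lipid onto lipoproteins, had 14.7, 14.1 and 14.7 CPM in MC and 0.726, 0.901 and 0.633 CPM in Trim AGU, with almost no spread within either group (19.7-fold lower, -4.30 ± 0.19, adjusted p = 0.00027). *Plagl1*, a zinc finger factor and imprinted growth regulator, had 33.2 to 39.2 CPM in MC and 1.16 to 3.95 CPM in Trim AGU (-3.84 ± 0.42, adjusted p = 0.0018). *Myo1g*, a membrane-linked myosin, went from 2.54 to 3.56 CPM to 0.121 to 0.189 CPM.

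Interferon-stimulated genes, which encode antiviral effectors and their regulators, were mostly lower. Of 31 tested, 17 were lower, against 12.4% of all genes, and 1 was higher (median log2 fold change -0.78). Library medians were -0.81, -0.57 and -0.91. Without replicate 2 there were 23 lower and 0 higher (median -0.95), while 7 to 8 were lower without any one MC library and 9 without replicate 3 of Trim AGU. *Mx2*, an antiviral GTPase, had 3.27, 2.66 and 3.15 CPM in MC and 0.221, 0.225 and 0.0302 CPM in Trim AGU (19.5-fold lower, -4.29 ± 0.52, adjusted p = 0.0026). *Ifit1* and *Isg15* went from 1.76 to 2.3 and 5.43 to 6.06 CPM to 0.126 to 0.75 and 1.51 to 3.06 CPM, and each missed the threshold with some single libraries left out (adjusted p up to 0.078 and 0.062). *Lgals3bp*, a secreted glycoprotein, had 112 to 117 CPM in MC and 34 to 48.8 CPM in Trim AGU (-1.49 ± 0.15, adjusted p = 0.0013). *Tap1*, a peptide transporter, was the member called higher (0.59). Its call was lost without any one MC library and without replicate 1 or replicate 2 of Trim AGU.

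Of the interferon-stimulated genes, 22 had a promoter window. The response element letters, GAAA, any 2 bases and GAAA (either strand), were in 14 of them (63.6%) and in 1034 of all windows (3.77%). The 14 include *Tap1*, which was called higher. *Dtx3l*, *Lgals3bp* and *Irf7* are shown as called members, at chr11:78320225-78320254 (plus strand), chr10:104127879-104127908 (minus strand) and chr1:205800073-205800102 (minus strand) of GRCr8. In *Irf7* the letters lie on the other strand.
Dtx3l: cccgggaaacGAAActGAAActttgcctct
Lgals3bp: gtgttttctgGAAAtcGAAActagactagg
Irf7: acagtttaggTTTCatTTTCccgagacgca

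Genes of the unfolded protein response and the integrated stress response were higher with Trim AGU. Both responses lower general translation and raise chaperones and amino acid enzymes. Of 33 tested, 20 were higher, against 11.4% of all genes, and 1 was lower (median 0.72), with library medians of 0.64, 0.79 and 0.63. Without replicate 2, 18 were higher and 1 was lower (median 0.65), and 13 to 14 were higher without any one MC library. *Ddit3*, or CHOP, the factor linked to cell death under prolonged stress, had 89.9, 88.5 and 84 CPM in MC and 220, 515 and 289 CPM in Trim AGU (3.79-fold, 1.92 ± 0.29, adjusted p = 0.0051). *Trib3*, a target of CHOP and ATF4, had 208 to 222 CPM in MC and 521 to 634 CPM in Trim AGU (1.35 ± 0.11, adjusted p = 0.0008). *Hspa5*, the chaperone BiP, went from 569 to 587 CPM to 992 to 1210 CPM (0.89 ± 0.11, adjusted p = 0.003). *Atf4* itself was at 592 to 637 CPM in MC and 862, 1460 and 963 CPM in Trim AGU (0.80 ± 0.20, adjusted p = 0.024), a call that was lost without replicate 2. *Slc7a11*, the cystine transporter, was the member called lower, from 58.5 to 60.1 CPM to 20.6 to 29.4 CPM (-1.23 ± 0.16, adjusted p = 0.0031).

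The endoplasmic reticulum stress element is CCAAT followed by 9 bases of any kind and CCACG, and so holds the CCAAT letters counted above. It was found on either strand in 6 of the 28 windows of this list (21.4%) and in 21 of all 27457 windows (0.0765%). Of these, *Hspa5*, *Xbp1* and *Dnajc3* were called higher and are shown at chr3:38452968-38452997, chr14:84604553-84604582 and chr15:102432529-102432558 of GRCr8, all on the plus strand.
Hspa5: gttcaCCAATcggaggcctCCACGacgggg
Xbp1: acaggCCAATcgcagacggCCACGacccta
Dnajc3: caaagCCAATcagcgccaaCCACGacccag

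Extracellular matrix genes were lower, to an extent that differed between the libraries. Of 41 tested, 20 were lower, against 12.4% of all genes, and 0 higher by the edgeR test (median -0.81), where an unadjusted p below 0.05 gave 23 and 1 and DESeq2 gave 22 and 0. Library medians were -0.49, -1.34 and -0.83, so replicate 2 lay furthest from MC. Without it, 21 were lower and the median was -0.65, and 11 to 12 were lower without any one MC library or without replicate 3 of Trim AGU. The fibroblast markers, which share matrix genes with this list, had 3 of 7 members lower, and their part in the result was not tested. *Postn*, or periostin, had 2850, 2950 and 2940 CPM in MC and 686, 628 and 743 CPM in Trim AGU, a fall that was even across the libraries (4.34-fold, -2.12 ± 0.13, adjusted p = 0.00042). *Mmp2*, a matrix metalloproteinase, had 25.2 to 28.6 CPM in MC and 4.65 to 6.76 CPM in Trim AGU (-2.18 ± 0.19, adjusted p = 0.00088). *Col6a3*, a collagen chain, had 208 to 233 CPM in MC and 64.3, 26.6 and 39.1 CPM in Trim AGU, and *Tnc*, or tenascin C, 33.8 to 37.1 and then 9.28, 2.4 and 7.03 CPM, with the lowest value in replicate 2 both times. *Lum* and *Dcn*, small proteoglycans of the matrix, went from 53.7 to 60.4 and 37.1 to 42.1 CPM to 9.79 to 15 and 8.97 to 12.2 CPM. The most abundant collagen gene of the list, *Col1a1*, was not called (14500 to 15600 CPM in MC, 18200, 11400 and 11200 CPM in Trim AGU, adjusted p = 0.56).

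Respiratory chain genes were higher in part, with a count that depended strongly on which library was left out. Of 53 tested, 13 were higher, against 11.4% of all genes, and 0 lower by the edgeR test (median 0.55), where an unadjusted p below 0.05 gave 30 and 0 and DESeq2 gave 24 and 0. Library medians were 0.20, 1.07 and 0.48. Without replicate 2, 7 were higher and the median was 0.34, without replicate 1 30 were higher, without replicate 3 2 were, without any one MC library 0 to 1 were, and with a trend on gene length removed from each library, 6 were higher and the median was 0.29. *Ndufa2*, a subunit of complex I, had 30.1 to 32.2 CPM in MC and 45.6, 116 and 54.8 CPM in Trim AGU (1.16 ± 0.33, adjusted p = 0.037). *Ndufs8* had 70.7 to 75.4 CPM in MC and 105, 257 and 139 CPM in Trim AGU. In both genes replicate 2 lay far above the other Trim AGU libraries. The share of counts from short genes was also highest in that library (19.3%), and its part in this result was not tested.

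Targets of the hypoxia-inducible factor and genes of glycolysis were lower in part. Of 37 tested, 11 were lower and 0 higher, with and without replicate 2, against 12.4% and 15.2% of all genes lower in turn, an unadjusted p below 0.05 gave 16 and 0, and DESeq2 gave 12 and 0. *Ndrg1*, a stress-induced growth regulator, had 9.57, 8.33 and 9.2 CPM in MC and 0.789, 0.525 and 0.844 CPM in Trim AGU (12.7-fold lower, -3.66 ± 0.25, adjusted p = 0.00051). *Pdk1*, a kinase that blocks entry of pyruvate into the citric acid cycle, went from 36.8 to 40.6 CPM to 16.7 to 21.4 CPM (-1.04 ± 0.14). *Pfkm*, the muscle form of phosphofructokinase, had 114 to 121 CPM in MC and 51.1 to 63.6 CPM in Trim AGU (-1.08 ± 0.12, adjusted p = 0.0019). The widely used hypoxia genes *Vegfa*, *Ldha* and *Slc2a1* did not pass the test. *Vegfa* had 717 to 746 CPM in MC and 666, 376 and 583 CPM in Trim AGU (adjusted p = 0.15), and *Ldha* had 1760 to 1880 and 1410 to 2150 CPM.

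**Figure D4:**
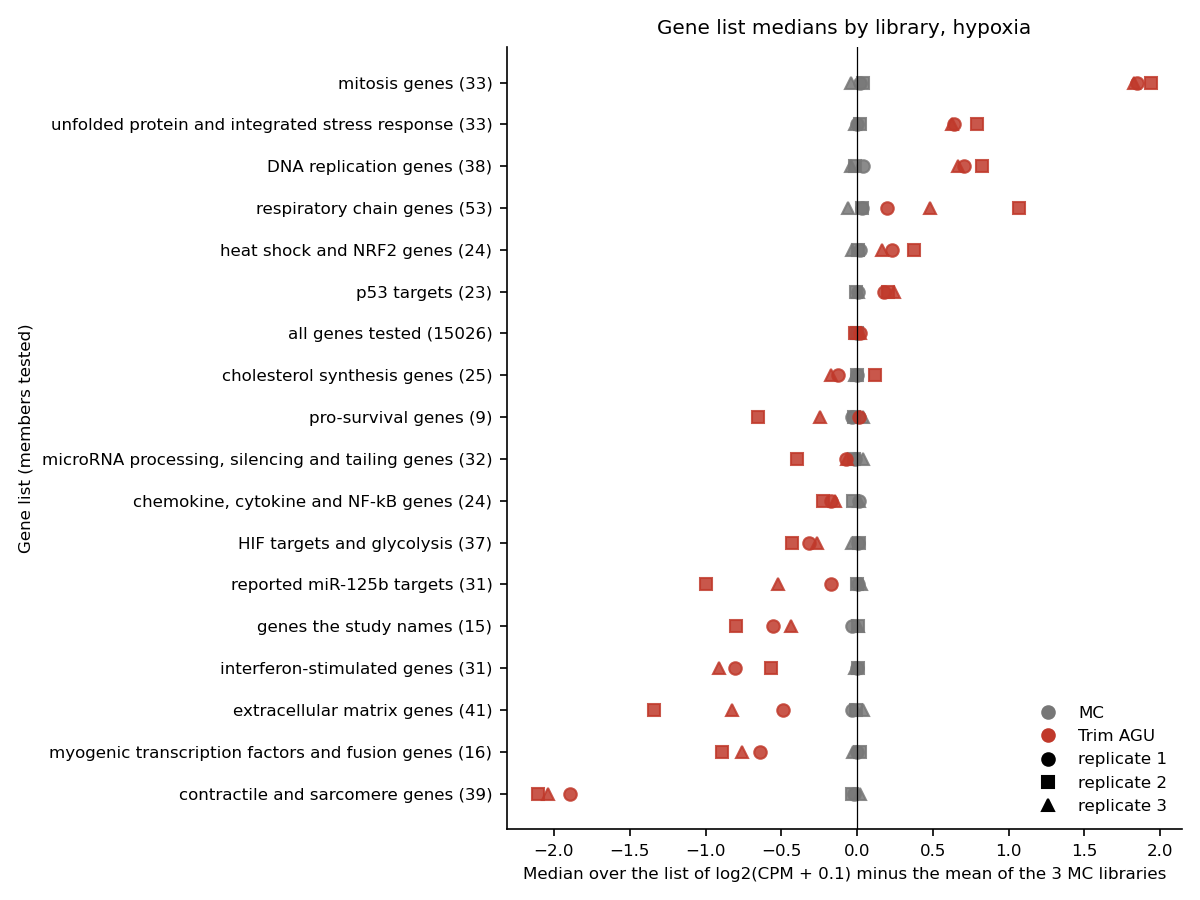
Each point is the median over a gene list of log2(CPM + 0.1) in a library minus the mean of the 3 MC libraries, for MC (grey) and Trim AGU (red), with the number of members tested in brackets. The mitosis list lies at 1.83 to 1.94 in all 3 Trim AGU libraries and the contractile list at -1.89 to -2.11, while the respiratory chain list spreads from 0.20 to 1.07.

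Among the genes reported as targets of miR-125b, 11 of 31 tested were lower and 3 higher (median -0.53), against 12.4% and 11.4% of all genes, with library medians of -0.18, -0.99 and -0.52. Without replicate 2, 12 were lower and 2 higher (median -0.37), and 6 were lower without any one MC library. *Stat3*, a transcription factor of cytokine signalling, had 171 to 180 CPM in MC and 80.1, 61.8 and 71.9 CPM in Trim AGU (-1.34 ± 0.13, adjusted p = 0.0012). *Mknk2*, a kinase of the translation factor eIF4E, had 180 to 183 CPM in MC and 73.6 to 86.1 CPM in Trim AGU (-1.25 ± 0.11, adjusted p = 0.00085). *Vdr*, the vitamin D receptor, was at 12.2 CPM in all 3 MC libraries and at 6.44, 3.83 and 4.7 CPM in Trim AGU (-1.31 ± 0.23, adjusted p = 0.0077). *Lifr* went from 9.26 to 11.6 CPM to 3.82, 0.525 and 3.5 CPM, apart in every library but not called (adjusted p = 0.052). The members called higher were *Cdc25c*, a phosphatase that activates CDK1 (1.05 ± 0.17), *Plk3* (0.96 ± 0.20) and *Eif4ebp1* (0.61, a call lost without replicate 2).

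Of the 15 genes that the study names and the tables list, 7 were lower and 2 higher, with and without replicate 2, against 12.4% and 11.4% of all genes. The study took up *Tnnt2* for its fall in this sequencing, so the count of lower genes was partly fixed by that choice. *Actb* was the study's reference gene and not a target it chose. *Tnnt2*, cardiac troponin T, had 281, 302 and 292 CPM in MC and 32.7, 64.9 and 34.8 CPM in Trim AGU (6.80-fold lower, -2.77 ± 0.26, adjusted p = 0.0012). *Bmf*, a pro-apoptotic BH3-only gene, had 33.6 to 36.7 CPM in MC and 10.5, 3.6 and 9.41 CPM in Trim AGU (-2.18 ± 0.38, adjusted p = 0.0082). *Tnfrsf1b*, a receptor of TNF, went from 1.33 to 1.73 CPM to 0.211 to 0.284 CPM (-2.66 ± 0.32, adjusted p = 0.0024), and *Bcl2l11*, the BH3-only gene BIM, from 44.1 to 46.1 CPM to 21.6 to 27.1 CPM (-0.94 ± 0.12, adjusted p = 0.0033). *Actb*, a common reference gene, had 5020 to 5250 CPM in MC and 2500 to 2940 CPM in Trim AGU (-0.96 ± 0.13, adjusted p = 0.0032). *Bax*, a pore-forming death gene, rose from 178 to 187 CPM to 263, 356 and 303 CPM (0.72 ± 0.12, adjusted p = 0.0076, and up to 0.053 with 1 library left out). *Traf6* and *Tp53inp2* were also lower (-0.87 and -0.75), and *Traf6* lost the call without any one MC library (adjusted p up to 0.11). *Tp53inp1* had 30.1, 7.69 and 32.5 CPM in Trim AGU and 35.8 to 43.1 CPM in MC, and *Klf13* 4.14, 0.525 and 4.49 CPM against 5.38 to 7.12 CPM. In these genes replicate 2 alone was far below MC, and neither was called (adjusted p = 0.27 for each). *Casp2* and *Bak1* differed from MC by -0.18 and 0.12 (log2) and did not pass the test.

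The remaining lists held fewer calls, to be read against 11.4% of all genes higher and 12.4% lower. Of 23 p53 target genes, 6 were higher and 1 lower, and 5 and 2 without replicate 2, while 2 to 4 were higher without any one MC library. Among them *Phlda3* rose from 483 to 529 CPM to 898 to 1030 CPM (0.86 ± 0.11, adjusted p = 0.0029) and *Gadd45a* from 178 to 194 CPM to 294 to 336 CPM (0.75 ± 0.10), while *Cdkn1a*, the cell cycle inhibitor p21, was at 600 to 635 CPM in MC and 537 to 584 CPM in Trim AGU and was not called (adjusted p = 0.22). Of 24 genes of the heat shock and NRF2 responses, 7 were higher and 1 lower, 8 and 1 without replicate 2, and 3 to 5 were higher without any one MC library. *Gclc*, an enzyme of glutathione synthesis, had 158 to 162 CPM in MC and 322 to 406 CPM in Trim AGU (1.21 ± 0.13, adjusted p = 0.0018), and *Hmox1*, heme oxygenase, rose by 0.97 ± 0.12 (log2). Of 24 chemokine, cytokine and NF-kB genes, 8 were lower and 2 higher, 9 and 2 without replicate 2, 4 and 1 without any one MC library, and 5 and 2 without replicate 3 of Trim AGU. *Il33*, an alarmin cytokine, had 15.3 to 15.9 CPM in MC and 2.14 to 3.95 CPM in Trim AGU (-2.29 ± 0.26, adjusted p = 0.002). Of 25 cholesterol synthesis genes, 2 were lower and 0 higher by the edgeR test, with *Dhcr7* from 5.58 to 6.73 CPM to 2.44 to 2.68 CPM, an unadjusted p below 0.05 gave 6 and 4, and DESeq2 gave 2 and 1. Of 9 pro-survival genes, *Birc5* alone was higher and 0 were lower by the edgeR test, where an unadjusted p below 0.05 gave 3 and 1 and DESeq2 gave 1 and 1.

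Genes of microRNA processing, silencing and tailing were mostly not called. Of 32 tested, 4 were lower, a share near the 12.4% of all genes, and 0 higher by the edgeR test, an unadjusted p below 0.05 gave 9 and 2, DESeq2 gave 6 and 0, and 1 was lower without any one MC library. The 4 were *Zcchc11*, a terminal uridylyltransferase (42.3 to 44.5 CPM in MC, 29.1, 15.9 and 23.1 CPM in Trim AGU), *Dis3l2*, an exonuclease of uridylated RNA (16.7 to 16.8 and 8.33 to 11.2 CPM), *Tnrc6b*, a partner of Argonaute (109 to 114 and 44 to 78 CPM), and *Prkra*, a partner of Dicer (61.4 to 68.4 and 39 to 52 CPM). *Ago2*, the slicing Argonaute, had 16.3 to 18.4 CPM in MC and 13.5 to 16 CPM in Trim AGU and was not called (adjusted p = 0.24).

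Some genes differed more among the Trim AGU libraries than between the groups. Of the 8 genes with the widest range among the 3 libraries, *Lrrc58* had 59.7 and 53.9 CPM in replicates 1 and 3 and 2.96 CPM in replicate 2, against 50.9 to 62.5 CPM in MC. *Clcn5*, a chloride transporter gene, had 11.3, 0.3 and 9.14 CPM and 11.4 to 13.9 CPM in MC, and *Soga1* 14.2, 0.113 and 12.2 CPM and 18.4 to 26 CPM in MC. In all 3 genes replicate 2 was far below the other libraries, and replicates 1 and 3 of *Soga1* also lay below MC. *Mff*, a mitochondrial fission factor, went the other way, with 2.08, 39.5 and 2.17 CPM in Trim AGU and 35, 13.7 and 37 CPM in MC. *Uchl3* was also high in replicate 2 alone, with 0.158, 27.7 and 0.422 CPM in Trim AGU and 5.1 to 10.2 CPM in MC. *Tma7* varied as widely within MC, at 0.441, 2.02 and 20.4 CPM there and at 0.505, 19.9 and 2.98 CPM in Trim AGU. *Nhp2* and *Gstm5* were high in replicate 1 of Trim AGU and also spread within MC, over 8.81 to 34.6 and 0.845 to 19.1 CPM. None of the 8 was called by edgeR (adjusted p 0.35 to 0.99), while *Soga1*, *Mff* and *Uchl3* were called lower without replicate 2.

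Trim AGU was next compared directly with miR-125b and with Trim AG at the same dose and oxygen, which gives 2 pairs of mimics. These are tests of the difference itself and do not use the MC libraries. Adjusted p-values are over the genes of each pair. Against miR-125b, from which Trim AGU differs by the 3 bases at the 3′ end, 1.83% of 15051 genes were higher and 1.93% lower. Against Trim AG, from which it differs by the last base, 0.238% of 15151 genes were higher and 0.198% lower. The biological coefficient of variation was 0.163 in Trim AG and 0.0885 in miR-125b. Genes are called less readily where libraries spread more, so these shares do not rank the differences between mimics. Without replicate 2 of Trim AGU, 1.72% and 1.03% of 15610 genes differed from Trim AG. Calls against Trim AG fell to 0 higher and 0 to 1 lower without any one library of Trim AG or replicate 3 of Trim AGU, and to 11 and 3 without replicate 1. Calls against miR-125b fell to 17 to 25 higher and 10 to 13 lower without any one library of miR-125b, and to 60 and 29 without replicate 3 of Trim AGU. Leaving out replicate 2 of Trim AGU raised the calls against miR-125b to 506 and 795, and leaving out its replicate 1 to 788 and 689.

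The mitosis genes set Trim AGU apart from miR-125b. Of 33 tested, 31 were higher than with miR-125b (median difference 1.44), against 1.83% of all genes. The count was 11 to 12 without any one library of miR-125b and 19 without replicate 3 of Trim AGU. Against Trim AG 0 were called by edgeR and by DESeq2, with any one library left out too, and at an unadjusted p below 0.05 there were 3 lower and 0 higher. Against MC, the same list had 33 higher members with Trim AGU, 33 with Trim AG and 8 with miR-125b. Over all genes tested, 1713 of 15026, 2604 of 15315 and 1428 of 15143 were higher in turn. The list median was 0.33 (log2) above MC with miR-125b. These comparisons share the MC libraries. *Cep55*, which recruits the machinery of the last cut between daughter cells, had 5.27 to 6.01 CPM with miR-125b, 6.05 to 6.76 CPM in MC, 23.3 to 30.9 CPM with Trim AG and 21.5 to 25.9 CPM with Trim AGU (2.05 ± 0.14 against miR-125b, adjusted p = 0.0021). *Cdca3*, a trigger of mitotic entry, had 7.65 to 9.25 CPM with miR-125b and 36.8 to 57.3 CPM with Trim AGU (2.29 ± 0.20, adjusted p = 0.0039), and *Cdca2*, a subunit that targets a phosphatase to chromatin, 5.27 to 5.65 and 19.5 to 21.5 CPM (1.84 ± 0.13). *Nusap1* had 11.5 to 12.2 CPM with miR-125b, 31.2 to 43.9 CPM with Trim AG and 43.3 to 56.9 CPM with Trim AGU. *Ccnb1* had 20.1 to 22.7 CPM with miR-125b and 62.9 to 93.1 CPM with Trim AG, and the difference of Trim AGU from Trim AG was 0.01 ± 0.17 (SE). Of the 38 replication genes, 11 were higher than with miR-125b, 19 without replicate 2 of Trim AGU, 1 without its replicate 3, and 0 without any one library of miR-125b. Against Trim AG 0 replication genes were called by edgeR, 2 higher and 7 lower had an unadjusted p below 0.05, and DESeq2 gave 1 and 1.

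Some of the other lists were compared with miR-125b in the same way. Of 30 reported miR-125b targets tested, 1 was higher and 2 lower with Trim AGU by edgeR, against 1.83% and 1.93% of all genes. Their median difference was -0.03, and an unadjusted p below 0.05 gave 5 and 5. With any one library left out, 0 to 2 were higher and 0 to 3 lower. Of 35 contractile genes tested, 5 were higher and 2 lower with Trim AGU than with miR-125b, against 1.83% and 1.93% of all genes, and the median difference was -0.07. Leaving out replicate 2 of Trim AGU gave 6 and 6, while leaving out its replicate 3 or any one library of miR-125b gave 0 to 1 higher and 0 lower. *Acta1*, skeletal alpha-actin, showed the clearest difference. It had 153 to 163 CPM in MC, 17 to 19.2 CPM with miR-125b, 144 to 181 CPM with Trim AG and 67.7, 82.1 and 54.8 CPM with Trim AGU, which was apart from miR-125b (1.84 ± 0.16, adjusted p = 0.0037) and from Trim AG (-1.27 ± 0.17, adjusted p = 0.041). *Myog* was lower with Trim AGU than with miR-125b (-0.61 ± 0.11, adjusted p = 0.037) and higher than with Trim AG (1.88 ± 0.15, adjusted p = 0.012), at 61.7 to 63.2, 36.9 to 47.5 and 10.8 to 11.8 CPM in turn. Both *Myog* calls were lost without any one library of the other mimic or replicate 3 of Trim AGU, where its list had 0 such members. The call of *Acta1* against Trim AG was lost without any one library of Trim AG or replicate 1 or 3 of Trim AGU, with 0 contractile genes lower. Its call against miR-125b was lost without replicate 1 of miR-125b, with 0 contractile genes higher. *Tnnt2* had 40 to 42.3 CPM with miR-125b and 14.8 to 16.9 CPM with Trim AG, and neither difference from Trim AGU passed the test (0.05 ± 0.25 and 1.45 ± 0.26, adjusted p = 0.91 and 0.07). Of 33 stress response genes, 0 were called against either mimic by edgeR, with median differences of -0.01 and -0.09. An unadjusted p below 0.05 gave 4 higher and 4 lower against miR-125b and 1 and 4 against Trim AG, and DESeq2 gave 1 and 1 and then 1 and 0. Of 41 matrix genes, 6 were lower and 0 higher than with miR-125b by edgeR, with a median difference of -0.86, 21 and 1 had an unadjusted p below 0.05, and DESeq2 gave 15 and 0. The number lower was 16 without replicate 2 of Trim AGU, 18 without replicate 1, 1 without replicate 3 and 0 without any one library of miR-125b. Of 30 interferon-stimulated genes, 1 was lower and 0 higher than with miR-125b by edgeR, with a median difference of -0.44, 13 and 0 had an unadjusted p below 0.05, and DESeq2 gave 5 and 0. The number lower was 10 without replicate 2 of Trim AGU, 3 without replicate 1, and 0 without replicate 3 or any one library of miR-125b.

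Single genes also separated the mimics. *Usp15*, a deubiquitinase, had 18.4 to 18.6 CPM with miR-125b, 63.1 to 67.1 CPM in MC and 91.5, 121 and 112 CPM with Trim AGU (2.50 ± 0.12 against miR-125b, adjusted p = 0.0021). *Spata13*, a guanine nucleotide exchange factor gene, had 4.74 to 5.43 CPM with miR-125b and 0.631 to 0.75 CPM with Trim AGU (-2.90 ± 0.21, adjusted p = 0.0021), and *Sec14l1*, a lipid-binding protein gene, 114 to 122 and 19.7 to 31.3 CPM (-2.20 ± 0.19, adjusted p = 0.0039). *Plagl1* was near the MC level with miR-125b (30.6 to 35.2 CPM) and at 17.3 to 24.5 CPM with Trim AG, and was lower with Trim AGU than with either (-3.71 ± 0.42 and -2.99 ± 0.43, adjusted p = 0.009 and 0.042). Its call against Trim AG was lost without replicate 1 or 3 of Trim AG or replicate 3 of Trim AGU, where 0 genes were called. *Trpm5*, an ion channel gene, and *Plg*, plasminogen, were at 4.43 to 5.05 and 3.69 to 4.08 CPM with miR-125b and at 0.375 to 0.905 and 0.995 to 1.17 CPM with Trim AGU, and were not called against MC. *Bcas1* and *Ogn* were also lower with Trim AGU than with miR-125b (-3.12 ± 0.28 and -2.11 ± 0.22).

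**Figure D5:**
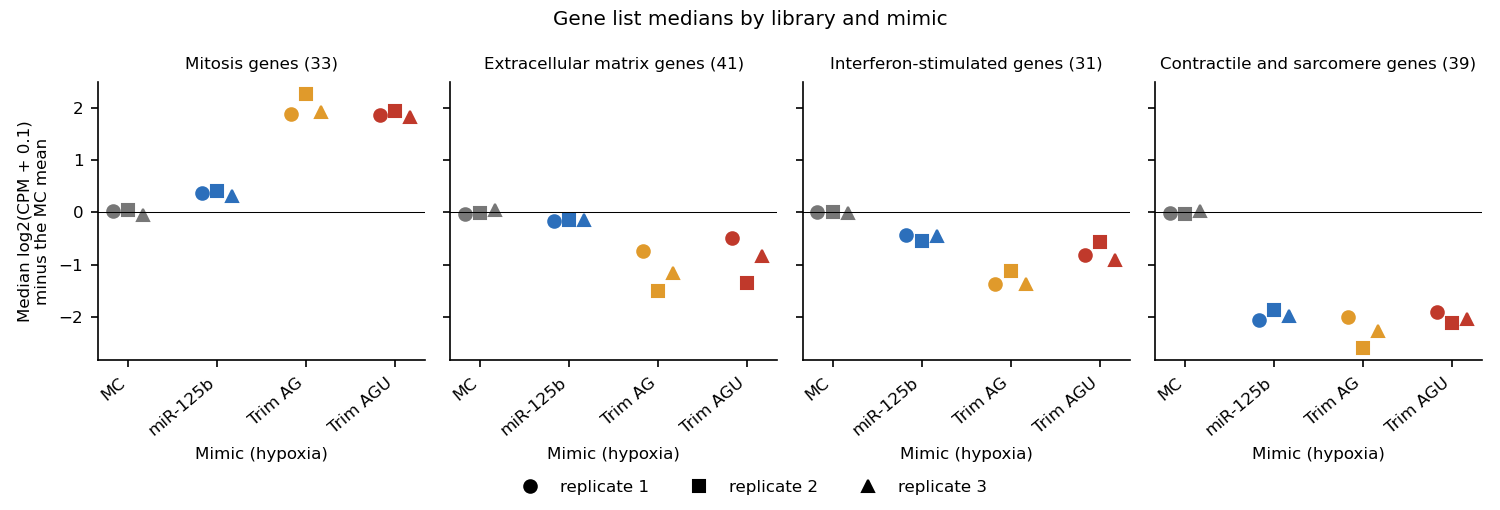
Each point is the median of a gene list in a hypoxia library, as log2(CPM + 0.1) minus the MC mean, for MC (grey), miR-125b (blue), Trim AG (orange) and Trim AGU (red), with circles, squares and triangles for replicates 1, 2 and 3. The mitosis list is high with Trim AG and Trim AGU. With miR-125b it lies 0.32 to 0.41 above the MC mean, against -0.04 to 0.04 in the MC libraries. The contractile list is low with all 3 mimics.

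Libraries of the same isomiR in normoxia come from parallel cultures and do not show the levels before hypoxia. These libraries are listed side by side with no test, since medium and serum differ along with oxygen. *Ccnb1* was at 195 to 225 CPM in Normoxia Trim AGU, above the 70.6 to 83.4 CPM in hypoxia, and *Mki67* at 454 to 587 CPM against 135 to 149 CPM. *Myog* was similar in both, at 48.4 to 59.4 CPM and 36.9 to 47.5 CPM. *Ddit3* was far lower in normoxia, at 30.1 to 33.5 CPM, and *Vegfa* was at 147 to 170 CPM there.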

How the data were processed

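RNA of 36 H9C2 libraries was sequenced from non-stranded, poly-A selected libraries; 24 were read here and 6 make the main comparison. The counts per gene were deposited by the authors as raw counts in tables of 2 groups each. HISAT2 and StringTie are named in the submitters' processing notes without a role. The genome build and annotation are not given in the sources used here, and the tables' fold changes and p-values were not used. The tables were joined by gene (23722 genes), and 372987 values listed more than once were all equal. Genes that a table leaves out had at most 1 count elsewhere and were set to 0.

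Counts were tested with edgeR 4.0.16 (filterByExpr, TMM, quasi-likelihood F-test, R 4.3.3) on the 2 groups compared, with Benjamini-Hochberg adjustment over all genes tested. The prior count was 2. Fold changes are given as log2 value ± SE, with the SE taken as the fold change over the root of F, and n = 3 libraries a group. Levels are CPM with TMM library sizes. List medians by library use log2(CPM + 0.1). Named genes were the 12 per direction with the largest change among those past the threshold with groups apart, a mean of at least 2 CPM and an adjusted p below 0.05 without each Trim AGU library, the genes the study names, list members, 6 per direction of each direct comparison (0 met this rule against Trim AG), and the 8 with the widest range among Trim AGU libraries. Other list members and *Chrna1*, as well as the genes set beside normoxia, were named after their values were seen. Members and lists were chosen with earlier results of these data known. Alternatives were DESeq2 1.42.0, RLE factors, no filter, all hypoxia libraries in 1 fit, the replicate block, a fold of 2, each library left out and, chosen after seeing the data, a trend on gene length removed. Counts were also simulated for Trim AGU against MC (15026 genes). With the spread of each group as in the data, 4-fold changes were recovered in 89.2% and 2-fold changes in 17.6% of cases. With equal spread these were 100% and 99.8%. In the simulation fewer genes changed than were called here, and the spread was even over the 3 Trim AGU libraries and over gene length. The recovery rates need not hold for the data. Values of some genes tested are not reported here. Sequences are from RefSeq (GRCr8), a build that the tables' gene positions need not share.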

Additional observations from a re-analysis of the deposited data

How the results depend on the processing

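For Trim AGU against MC, DESeq2 gave 2073 higher and 2219 lower genes, and a fold threshold of 2 gave 686 and 1129. With 1 library left out the counts ran from 567 to 2308 higher and from 890 to 2328 lower. Against miR-125b, DESeq2 gave 608 and 640, all hypoxia libraries in 1 fit 960 and 1043, a fold threshold of 2 149 and 161, and leaving out 1 library 17 to 788 and 10 to 795. Against Trim AG, DESeq2 gave 330 and 201, all hypoxia libraries in 1 fit 782 and 591, and leaving out 1 library 0 to 268 and 0 to 161. Of the list medians under alternatives, 190 moved by less than the spread between libraries and 14 by more. Of the named genes under alternatives, 528 values kept direction and call, 13 lost the call and 3 gained it. The cause was not tested.

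The replicate block gave 1336 higher and 1597 lower genes against MC, 38 and 16 against miR-125b and 2 and 1 against Trim AG. Deviations of libraries with the same number correlated at -0.0798, 0.118 and 0.117 between Trim AGU and MC, so the numbers were not taken to pair the libraries. Between Trim AGU and Trim AG, each library correlated best with its own number (0.361, 0.224 and 0.0644), a hint from the data and not the design.

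The values that changed sign belong to genes that were not called. *Gstm5* went to -0.54 under the block and from -3.56 to 2.65 with 1 library left out, *Nhp2* from -4.12 to 0.34 with 1 left out, *Tma7* to 0.0092 with DESeq2, 0.018 with RLE factors, 0.18 under the block and from -2.13 to 2.59 with 1 left out, and *Uchl3* to -2.61 under the block, -0.34 without the length trend and from -4.75 to 0.79 with 1 left out. Of the genes the study names, one went to -0.10 without the length trend and ran from -0.049 to 0.20 with 1 library left out, and another ran from -0.27 to 0.17.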
